A study of Mus musculus with 39 samples.

Results

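The genes described here are 36 cell cycle and DNA replication genes, of 23337 gene symbols measured, in monocytes and synovial macrophages sorted from mouse blood and ankles. They were taken by symbol from a list of 11 S phase and replication genes, 21 G2 and mitosis genes and 4 other proliferation-linked genes (Stmn1, Hmgb2, Cks1b and Cks2) and not by a threshold on measured values. All 36 had counts in some library, and all 36 passed the expression filter and were tested.

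A cell that divides copies its DNA in S phase, when the MCM helicase opens the double helix, the sliding clamp Pcna holds the polymerases on it and ribonucleotide reductase supplies the building blocks. It then enters mitosis under cyclin B and its kinase Cdk1, and kinesins, centromere proteins and the chromosomal passenger complex (Aurkb with Birc5, also called survivin) separate the chromosomes. Circulating monocytes are generally non-dividing, whereas their bone marrow precursors divide and tissue macrophages can renew themselves by local division.

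Each of 13 groups had 3 libraries, 39 in all, made from more than 400 sorted cells each. HUPO mice carried Flip flox/flox with CD11ccre, so that Flip (Cflar), which restrains cell death triggered by death receptors, is deleted only where the CD11c promoter drives the recombinase, and they had established arthritis. Control mice carried the same floxed alleles with the label CD11c+ and were littermates or matched for age and sex. All mice were C57BL/6 and from 21 to 37 weeks old. From the ankle came the groups HUPO FH2, control FH2, HUPO FH1, control FH1, HUPO FI2, HUPO FI3, control FI3, HUPO FI1 and control FI1, all labelled synovial macrophages, and FI2 was present for HUPO mice only. FH stands for high and FI for intermediate F4/80, a surface marker of macrophages. From blood came HUPO and control non-classical monocytes (NCM) and HUPO and control classical monocytes (CM). Single libraries are named by their titles, in which Iia stands for FI1, Iic for FI3, C for CM and NC for NCM, and the number is not explained by the labels. The labels do not say that the 3 libraries of a group came from separate mice, so p-values measure only the spread between these libraries, which may be technical. Before deposit the authors left out low-quality libraries, some libraries least correlated with their group and F4/80-high HUPO libraries with neutrophil contamination, which lowers the spread within groups.

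The libraries held 3116615 to 14100712 counts. Levels are given as CPM, counts scaled to a common TMM-adjusted library size. Cflar averaged 40.7 ± 27.3 CPM in HUPO FH2, against 219 ± 43.2 CPM in control FH2 (SD, n = 3 each), while in FI1 its libraries overlapped, at 35.8 to 101 CPM in HUPO mice and 30.3 to 111 CPM in controls. The macrophage and monocyte marker list summed to 42960 to 46330 CPM in HUPO FI1 and 35460 to 45680 CPM in control FI1, within the range of the 21 other ankle libraries (22820 to 73910 CPM), but most of it was Lyz2 (33540 CPM on average in HUPO FI1 and 28850 CPM in control FI1). The macrophage markers Mertk, C1qa, Emr1 (F4/80) and Cd68 were lower in every FI1 library than in every FH1 library. Mertk, a receptor for apoptotic cells, was at 0 in all HUPO FI1 libraries and at 0 to 0.119 CPM in control FI1, against 40.8 to 67.8 CPM in HUPO FH1 and 45.3 to 64.8 CPM in control FH1. C1qa, a complement subunit, had 0 to 0.416 CPM in HUPO FI1 and 0 to 384 CPM in control FI1, against 2237 to 2832 CPM in HUPO FH1 and 3292 to 4364 CPM in control FH1. The classical monocyte markers Ly6c2 and Ccr2 averaged 3173 and 1365 CPM in HUPO FI1 and 1787 and 841 CPM in control FI1, against 57.9 and 115 CPM in HUPO FH1 and 0.0252 and 32.9 CPM in control FH1. Emr1 encodes the marker used in the sort, so its lower level in FI1 was partly set by the gate. Of the same list, C1qb and Csf1r were also lower in FI1 than in FH1 of the same genotype. Fcgr1 overlapped in both genotypes, and Cd14 was higher in control FI1 (4081 to 7130 CPM) than in control FH1 (2178 to 2481 CPM). Mertk, C1qa and Cd68 thus go against the label of macrophage for FI1, while Cd14 and Fcgr1 do not. The population is called FI1 here. FI1 libraries also carried markers of other cells. The summed neutrophil list (14 measured genes, among them S100a8, S100a9, Ngp and Ltf) was 15680 to 25840 CPM in the 6 FI1 libraries, against 6.00 to 10810 CPM in the 21 other ankle libraries and 362 to 6191 CPM in the 6 CM libraries. The summed myeloid progenitor list (12 genes) was 1679 to 3834 CPM in HUPO FI1 and 362 to 4675 CPM in control FI1, against at most 293 CPM in any other library. Most of the FI1 average was Mpo, Elane and Prtn3, at 1269, 733 and 431.5 CPM in HUPO and 1214, 620 and 270 CPM in control FI1. Kit averaged 25.9 CPM in HUPO FI1 and 0 in control FI1, and Cd34 17.3 and 37.6 CPM. Sox4 averaged 4.31 and 6.25 CPM there, below control FH1 at 37.9 CPM.

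The regulatory sequence of these genes is shown first for 6 members whose levels differed between populations, as the window from 250 bases before to 50 bases after the RefSeq start site (assembly GRCm38.p6, the build called mm10 in the submitters' notes). Top2a, Ccnb2 and Hmgb2 stand for the genes of mitosis and chromatin, Rrm2 and Mcm5 for S phase, and Mcm6 for the member whose level did not follow the others. Capitals mark the motifs named here, or their reverse complements, so both strands were searched. TTTGAA and the palindrome TTTAAA are forms of the cell cycle homology region bound by the DREAM complex, CCAAT is the box bound by NF-Y, and TTGGCGC is a core bound by E2F proteins, which the longer TTTGGCGC contains.
Top2a: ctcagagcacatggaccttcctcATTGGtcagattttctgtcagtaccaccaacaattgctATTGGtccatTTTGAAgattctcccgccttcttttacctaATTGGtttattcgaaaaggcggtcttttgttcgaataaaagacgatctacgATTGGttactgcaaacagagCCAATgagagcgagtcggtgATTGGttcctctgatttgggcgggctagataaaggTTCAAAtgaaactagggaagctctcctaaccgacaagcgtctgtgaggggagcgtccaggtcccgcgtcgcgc
Ccnb2: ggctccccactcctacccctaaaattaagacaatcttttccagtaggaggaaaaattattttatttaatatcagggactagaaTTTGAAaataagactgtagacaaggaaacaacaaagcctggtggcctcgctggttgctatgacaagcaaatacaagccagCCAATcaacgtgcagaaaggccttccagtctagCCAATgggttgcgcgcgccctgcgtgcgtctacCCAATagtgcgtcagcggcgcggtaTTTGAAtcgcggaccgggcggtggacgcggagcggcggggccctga
Hmgb2: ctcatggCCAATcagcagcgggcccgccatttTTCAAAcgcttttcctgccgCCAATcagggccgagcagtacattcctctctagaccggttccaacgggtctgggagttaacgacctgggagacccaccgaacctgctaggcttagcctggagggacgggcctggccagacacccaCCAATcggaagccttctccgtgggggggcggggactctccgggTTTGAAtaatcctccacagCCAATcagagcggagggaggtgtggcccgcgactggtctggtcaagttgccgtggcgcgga
Rrm2: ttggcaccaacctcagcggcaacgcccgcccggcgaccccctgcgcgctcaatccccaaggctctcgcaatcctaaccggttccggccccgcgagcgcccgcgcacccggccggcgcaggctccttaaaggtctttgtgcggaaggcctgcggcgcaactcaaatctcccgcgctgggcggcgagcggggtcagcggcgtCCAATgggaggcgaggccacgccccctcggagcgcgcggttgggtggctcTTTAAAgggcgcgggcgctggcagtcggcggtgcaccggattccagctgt
Mcm5: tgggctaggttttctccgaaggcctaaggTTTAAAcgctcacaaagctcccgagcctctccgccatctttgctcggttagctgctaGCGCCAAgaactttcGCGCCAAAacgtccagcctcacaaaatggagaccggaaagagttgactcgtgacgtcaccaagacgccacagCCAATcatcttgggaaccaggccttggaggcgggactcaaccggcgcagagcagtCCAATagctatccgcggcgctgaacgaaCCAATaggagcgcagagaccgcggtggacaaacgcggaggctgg
Mcm6: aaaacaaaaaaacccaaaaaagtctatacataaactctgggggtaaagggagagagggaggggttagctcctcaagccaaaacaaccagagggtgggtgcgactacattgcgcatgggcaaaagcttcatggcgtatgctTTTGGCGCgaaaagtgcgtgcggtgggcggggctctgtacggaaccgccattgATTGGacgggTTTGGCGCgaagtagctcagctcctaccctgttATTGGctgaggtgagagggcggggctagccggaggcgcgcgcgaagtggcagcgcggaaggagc

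The windows are chr11:99024140-99024439 on the minus strand for Top2a, chr9:70421505-70421804 on the minus strand for Ccnb2, chr8:57511593-57511892 on the plus strand for Hmgb2, chr12:24708004-24708303 on the plus strand for Rrm2, chr8:75109259-75109558 on the plus strand for Mcm5 and chr1:128359656-128359955 on the minus strand for Mcm6. Windows were found for 31 of the 36 members. Mcm7 had more than 1 window and Mcm4 had none, so the 11 S phase windows cover 10 genes. TTTGAA was in 13 of 18 windows of the G2 and mitosis genes (72.2%), in 1 of 11 windows of the S phase genes (9.09%) and in 17.9% of all 32851 windows. TTGGCGC was in 3 of 18 mitosis windows (16.7%), 4 of 11 S phase windows (36.4%) and 2.45% of all windows. TTTGGCGC was in the windows of Mcm3, Mcm5 and Mcm6 and in 0.514% of all windows. CCAAT was in 16 of 18 mitosis windows (88.9%), 9 of 11 S phase windows (81.8%) and 37.4% of all windows, and TTTAAA in 7 of 18 (38.9%), 3 of 11 (27.3%) and 13.2%. TTCCCGC, another E2F core, was in none of the 18 mitosis windows, in 4 of 11 S phase windows (36.4%) and in 4.6% of all windows. Counted by gene, TTCCCGC was in 3 and CCAAT in 8 of the 10 S phase genes with a window. These matches describe the letters of the windows and not binding.

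Most of the genes were highest in the FI1 libraries of both genotypes. The highest group mean was in HUPO FI1 for 25 members and in control FI1 for 8, and the FI1 mean exceeded every other ankle group of its genotype for 35 of 36 members in each, the exception being Mcm6. Summed over all 36, the genes reached 5523, 4564 and 3505 CPM in HUPO FI1 (mean 4531, or 0.453% of all counts) and 5319, 2853 and 1950.0 CPM in control FI1 (mean 3374, or 0.337%). The 12 other HUPO ankle libraries held 310.6 to 1358 CPM and the 9 other control ankle libraries 558 to 1938 CPM, so every FI1 library was above them, the lowest control FI1 library by a small margin. HUPO CM held 413.5, 341 and 274 CPM and control CM 401, 232 and 334 CPM, all below every ankle library of FH1, FH2 or FI3. In sorted bulk RNA, fewer dividing cells and less of each RNA per dividing cell cannot be told apart.

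**Figure D1:**
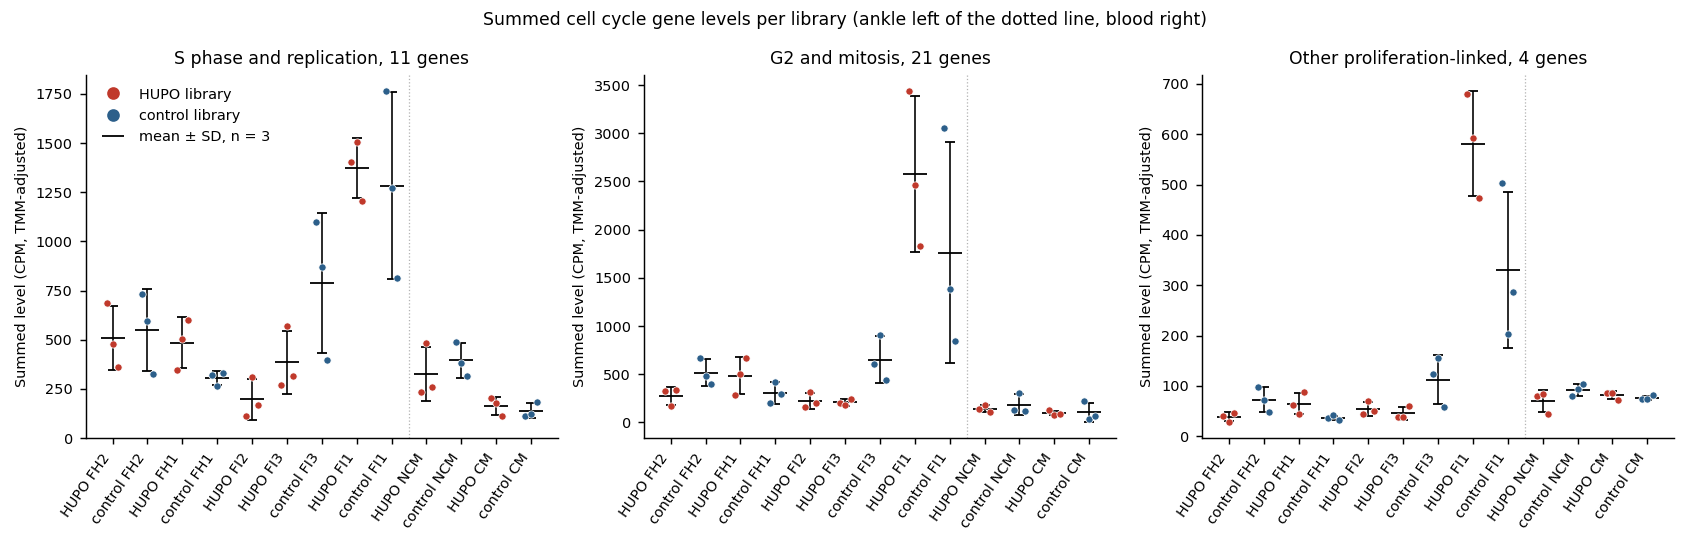
Summed level in CPM of the S phase genes, the G2 and mitosis genes and the 4 other proliferation-linked genes, by group, with points for libraries, the mean and SD of 3 libraries, HUPO in red and control in blue, and ankle groups left of the dotted line and blood groups right of it. For mitosis genes the HUPO FI1 libraries, at 1828 to 3438 CPM, stand above every library outside FI1, while the control FI1 libraries spread from 849 to 3053 CPM and the lowest of them overlaps control FI3.

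Both phases were represented in FI1. S phase genes averaged 1372 ± 153 CPM in HUPO FI1 and 1283 ± 475 CPM in control FI1 (SD, n = 3 each), where the lowest libraries had 1205 CPM and 815 CPM. The other 12 HUPO ankle libraries had a median of 355.5 CPM (111 to 686), and the other 9 control ankle libraries one of 396 CPM (264 to 1097). G2 and mitosis genes summed to 3438, 2466 and 1828 CPM in HUPO FI1 and to 3053, 1382 and 849 CPM in control FI1, against a median of 265 CPM (156 to 668) in the other HUPO and 437 CPM (201 to 911) in the other control ankle libraries. The HUPO FI1 libraries lay above every library outside FI1 for both sums, whereas the lowest control FI1 library (Ank_1392_Control_Iia) lay within the range of the other control ankle libraries for both. The ratio of mitosis to S phase CPM was 1.52 to 2.45 in HUPO FI1, above every other HUPO library (at most 1.41, in HUPO FI2). In control FI1 it was 1.04 to 1.73, and other control groups overlapped this. They reached 1.6 in control FH1, 1.22 in control FH2, 1.11 in control FI3 and 1.97 in control CM. Control FH1 and control CM also reached into the HUPO FI1 range, so the ratio set FI1 apart within HUPO mice only. The ratio was not tested.

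The sum of the 36 genes had an SD of 1009 CPM in HUPO FI1 and 1744 CPM in control FI1. Every HUPO FI1 library had counts for all 36 members, and the control FI1 libraries for 28 to 36. CM libraries had counts for 12 to 15 members in HUPO mice and 12 to 17 in controls. In control FI1 the library with more of the 36 genes also had more of the progenitor list, with 5319, 2853 and 1950.0 CPM beside 4675, 2203 and 362 CPM of progenitor markers in Ank_1167_Control_Iia, Ank_1194_Control_Iia and Ank_1392_Control_Iia. In HUPO FI1 the highest libraries differed, with 5523, 4564 and 3505 CPM beside 2657, 3834 and 1679 CPM in Ank_1170_HUPO_Iia, Ank_1231_HUPO_Iia and Ank_1386_HUPO_Iia. The part of progenitor or neutrophil transcripts in the levels of the 36 genes was not tested.

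**Figure D2:**
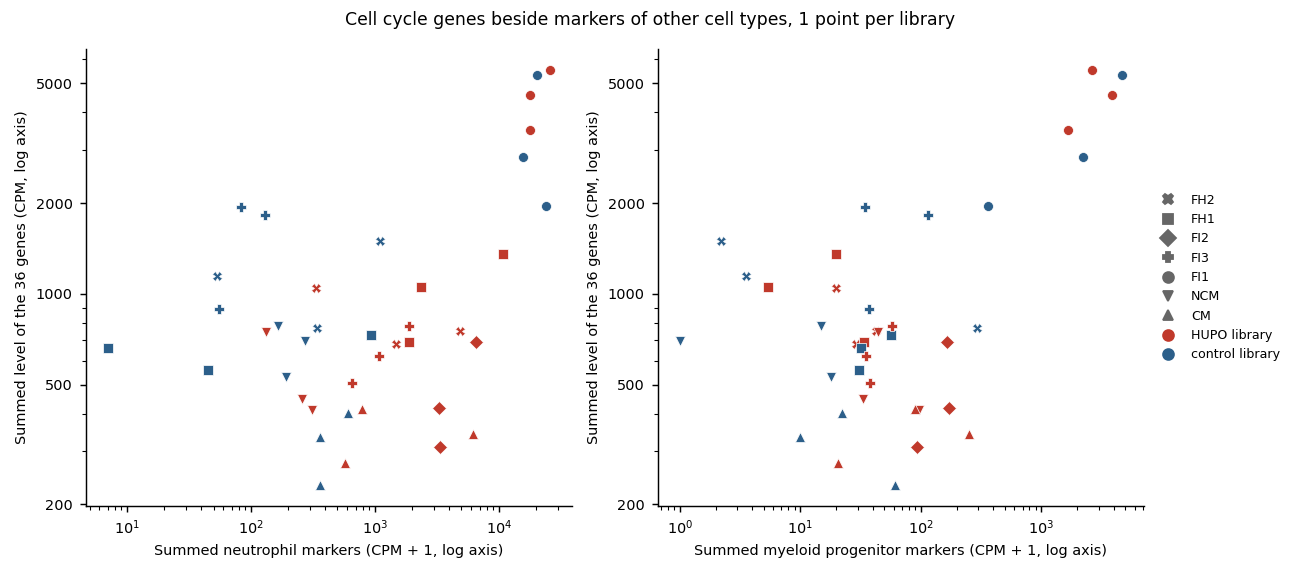
Summed CPM of the 36 genes (vertical, log axis) against the summed neutrophil markers (left) and myeloid progenitor markers (right), as CPM + 1 on log axes, with 1 point per library, shape for population, HUPO in red and control in blue. Neutrophil and myeloid progenitor markers were highest in the FI1 libraries of both genotypes, at 15680 to 25840 CPM and 362 to 4675 CPM.

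Among the S phase genes, the MCM helicase subunits did not all follow one pattern. Mcm5, a subunit of the replicative helicase, had 190, 230.3 and 181 CPM in HUPO FI1 and 226, 196 and 58.0 CPM in control FI1. It was at 0 in all 3 HUPO CM libraries and at 0, 0.552 and 0 CPM in control CM, and the 21 other ankle libraries had a median of 19.5 CPM (0 to 104). FI1 and CM libraries thus did not overlap, and only control FI1 library Ank_1392_Control_Iia lay within the other ankle libraries. Mcm4 had 76.1, 93.1 and 122 CPM in HUPO FI1 and 142, 133 and 102 CPM in control FI1, and Mcm3 had 104, 160 and 102 CPM and 148.5, 202 and 61.0 CPM. Mcm7 had 53.6 to 100.4 CPM in HUPO FI1 and 27.6 to 91.1 CPM in control FI1. Mcm2 had 41.0 to 111 CPM in HUPO FI1 and 0.563 to 158 CPM in control FI1, and its highest library was a HUPO NCM library (243 CPM).

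Mcm6, also a helicase subunit, had 146, 144.5 and 125 CPM in HUPO FI1 and 172, 121 and 0 CPM in control FI1, but the 21 other ankle libraries were at a median of 120.2 CPM (7.66 to 279.5). Its highest group mean was in HUPO FH1, with 120.2, 132 and 279.5 CPM, against 88.3, 117 and 136 CPM in control FH1. CM libraries held 0 to 26.5 CPM and NCM libraries 47.4 to 121 CPM, so FI1 did not stand out among ankle populations for Mcm6, and CM libraries were low.

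Pcna, the sliding clamp of the polymerases, had 103, 58.7 and 95.8 CPM in HUPO FI1 and 101, 102.5 and 134 CPM in control FI1. The other ankle libraries overlapped HUPO FI1, with a median of 59.7 CPM (35.1 to 98.6), and CM libraries had 1.62 to 49.5 CPM. Rrm2, the regulated subunit of ribonucleotide reductase, had 396, 304 and 258 CPM in HUPO FI1 and 331, 182 and 67.2 CPM in control FI1. All 6 CM libraries were at 0, 11 of 12 blood libraries were at 0, and the other ankle libraries had a median of 26.0 CPM (0 to 205). Rrm1, the large subunit, had 114, 259 and 81.4 CPM in HUPO FI1 and 252, 139 and 280.4 CPM in control FI1, within the range of the other ankle libraries (0 to 306 CPM). The thymidine-supplying enzymes Tyms and Tk1 had 67.6 to 84.5 and 24.4 to 41.9 CPM in HUPO FI1, against 0 to 67.4 and 20.5 to 81.0 CPM in control FI1.

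**Figure D3:**
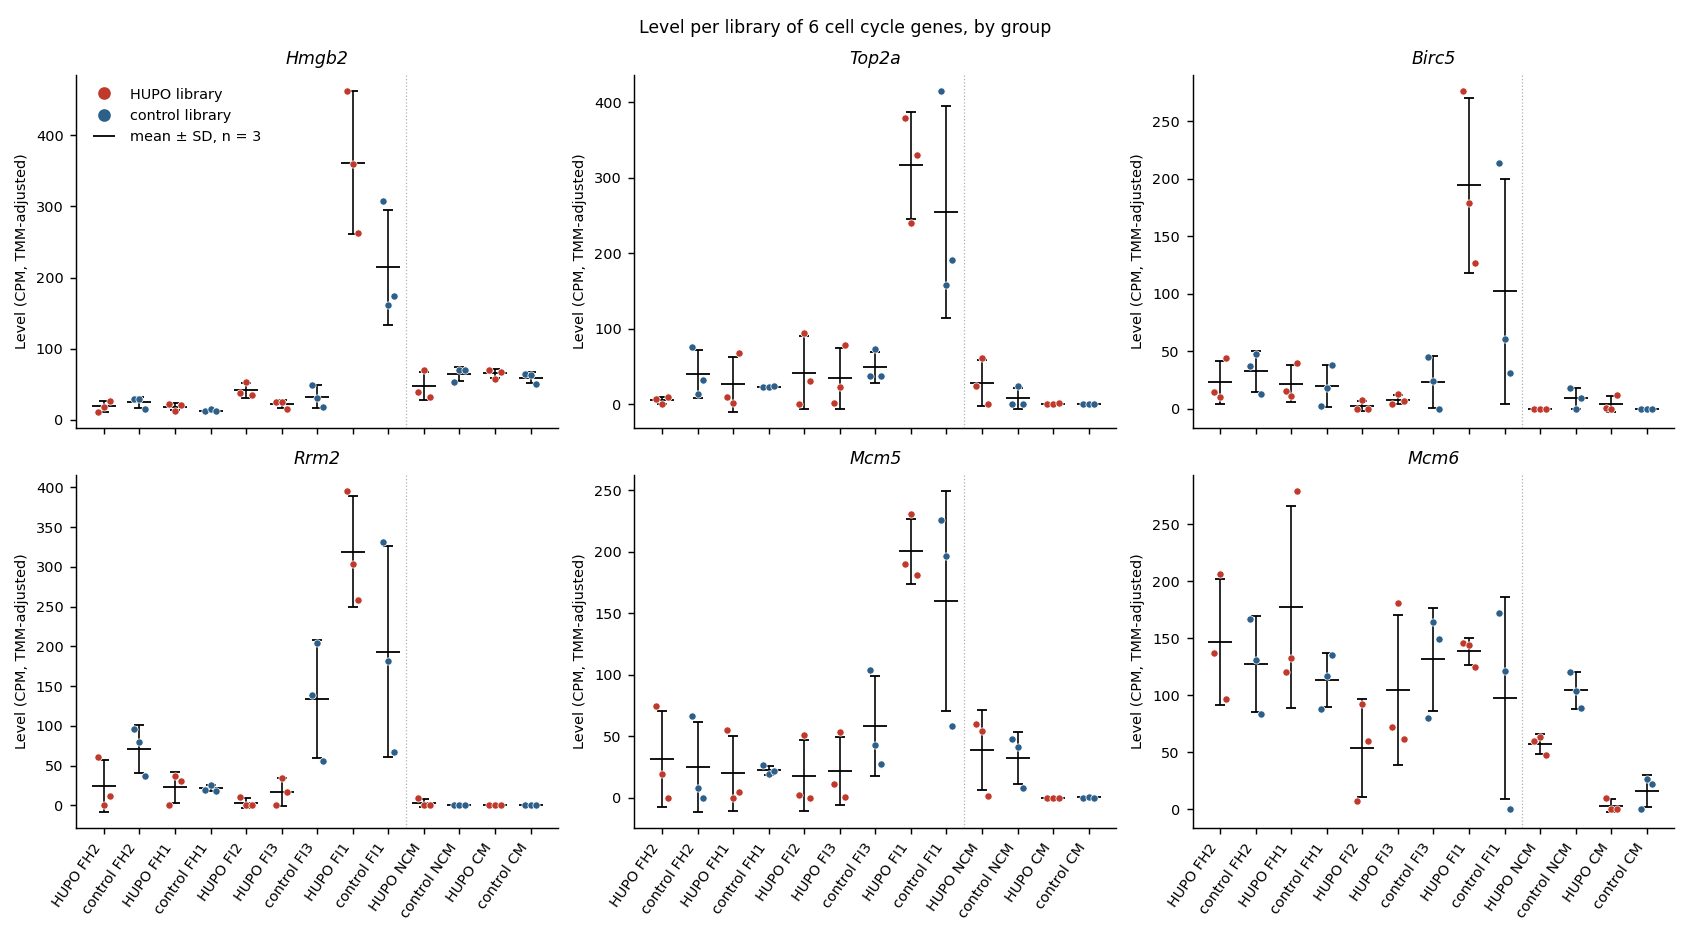
Level in CPM of Hmgb2, Top2a, Birc5, Rrm2, Mcm5 and Mcm6 in each library, with the mean and SD of 3 libraries per group, HUPO in red and control in blue, and ankle groups left of the dotted line. FI1 group means are highest for the first 5 genes, though the lowest control FI1 library overlaps other ankle libraries for Birc5, Rrm2 and Mcm5, while Mcm6 has a median of 120.2 CPM in the ankle libraries outside FI1 and 0 to 26.5 CPM in CM.

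Among the genes of G2 and mitosis, Top2a, which untangles replicated chromosomes, had 379, 239.5 and 330.0 CPM in HUPO FI1 and 415, 158 and 191 CPM in control FI1. HUPO CM had 0, 0 and 1.64 CPM and control CM 0 in all 3 libraries, and the highest of the other ankle libraries had 94.5 CPM, so the FI1 libraries of both genotypes overlapped neither. Mki67, which coats mitotic chromosomes and is the common marker of dividing cells, had 285, 222 and 71.8 CPM in HUPO FI1 and 378, 225 and 108 CPM in control FI1. It was not limited to FI1, with 204, 322 and 4.14 CPM in control FI3 and 112, 155 and 110.5 CPM in control FH2.

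Cyclin B2 (Ccnb2) had 324, 215 and 230.4 CPM in HUPO FI1 and 231, 70.2 and 76.2 CPM in control FI1, and per kilobase of exon it was the highest of the 36 in FI1, at 167.5 CPM per kb in HUPO and 82.3 CPM per kb in control mice. Cyclin B1 (Ccnb1) had 131, 43.5 and 54.8 CPM in HUPO FI1 and 78.1, 46.6 and 1.13 CPM in control FI1, and 0 in all 12 blood libraries. Cyclin A2 (Ccna2), which acts in both S phase and G2, had 188, 78.7 and 142 CPM in HUPO FI1 and 119, 83.2 and 111 CPM in control FI1, above all CM libraries (0 to 21.7 CPM). Cdk1, the kinase of the B cyclins, had 111, 80.0 and 45.4 CPM in HUPO FI1 and 113, 39.4 and 145 CPM in control FI1, and 5 of 6 CM libraries were at 0.

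Birc5 (survivin) had 276.5, 179 and 127 CPM in HUPO FI1 and 214, 60.7 and 31.4 CPM in control FI1, against 0.579, 0 and 12.2 CPM in HUPO CM and 0 in all control CM libraries. Its partner Aurkb had 229, 54.3 and 101 CPM in HUPO FI1, but in control FI1 only library Ank_1167_Control_Iia had counts (134 CPM). Ube2c, which hands ubiquitin to mitotic regulators, had 232, 182 and 132 CPM in HUPO FI1 and 172.5, 116 and 0 CPM in control FI1. Nusap1, a spindle protein, had 254, 216 and 82.0 CPM in HUPO FI1 and 168, 91.8 and 0 CPM in control FI1. Several mitosis genes were thus missing from control FI1 library Ank_1392_Control_Iia while all 3 HUPO FI1 libraries had them. That library also had the fewest genes detected in FI1, 7840, against 9454 to 9538 in HUPO FI1. The part of this in the missing genes was not tested.

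Cdc20, the activator of the anaphase-promoting complex, had 77.2, 33.3 and 13.6 CPM in HUPO FI1 and 96.3, 65.1 and 64.8 CPM in control FI1. Cenpa, the histone of the centromere, had 131, 149 and 95.7 CPM in HUPO FI1 and 220, 61.6 and 5.26 CPM in control FI1, against 11.8 to 86.7 CPM in the other ankle libraries. Cenpe, a kinetochore motor, had 110, 104 and 51.8 CPM in HUPO FI1 and 107, 46.4 and 30.6 CPM in control FI1, and 13 of the 21 other ankle libraries were at 0. Cenpf, a kinetochore protein, had 126, 78.9 and 26.1 CPM in HUPO FI1 and 83.2, 103 and 0 CPM in control FI1, and 14 of the other 21 were at 0. All HUPO FI1 libraries thus had counts of these 3 genes, while most other ankle libraries had none of Cenpe or of Cenpf. The spindle checkpoint kinase Bub1 had 48.1, 99.5 and 32.8 CPM in HUPO FI1 and 91.7, 0 and 47.7 CPM in control FI1, and Bub1b had 95.1, 71.6 and 73.4 CPM in HUPO FI1 and 101, 59.6 and 1.88 CPM in control FI1. Plk1, a mitotic kinase, had 40.8, 38.1 and 20.3 CPM in HUPO FI1, counts in only 1 control FI1 library (39.5 CPM) and 0 in all 12 blood libraries. Tpx2, a spindle assembly factor, had 45.8, 88.9 and 15.7 CPM in HUPO FI1 and 91.8, 0 and 11.1 CPM in control FI1, and 0 in all 6 CM libraries. Aurka, Kif11 and Kif23, which build and divide the spindle, had 33.3 to 175 CPM in HUPO FI1 and 0 to 98.7 CPM in control FI1.

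Hmgb2, a chromatin protein that is abundant in dividing cells, was lower in every library outside FI1 than in any FI1 library. It had 463, 359 and 262 CPM in HUPO FI1 and 308, 162 and 174 CPM in control FI1. CM libraries were at 50.7 to 70.4 CPM, NCM libraries at 32.7 to 70.7 CPM and the other 21 ankle libraries at 11.6 to 53.8 CPM, so no library outside FI1 reached the FI1 range. Stmn1, a microtubule destabiliser, had 88.3, 96.0 and 66.3 CPM in HUPO FI1 and 76.8, 28.2 and 32.5 CPM in control FI1, and CM libraries had 0 to 8.66 CPM. The Cdk subunit Cks1b had 112 to 128 CPM in HUPO FI1 and 7.77 to 106 CPM in control FI1, and Cks2 had 16.7, 9.16 and 20.7 CPM in HUPO FI1 and 11.6, 4.32 and 17.3 CPM in control FI1. Cks2 had 8.88 to 22.4 CPM in NCM, a range that overlapped that of FI1. In mm10 with the GENCODE vM21 annotation, the Hmgb2 gene spans chr8:57511907-57515999 on the plus strand, Top2a chr11:98992943-99024189 on the minus strand and Rrm2 chr12:24708241-24714146 on the plus strand, and the counts were summed over each gene. Reads of Hmgb2, Cks1b, Cks2 and Ccnb1 may be shared with near-identical copies, and their counts are uncertain to that extent.

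**Figure D4:**
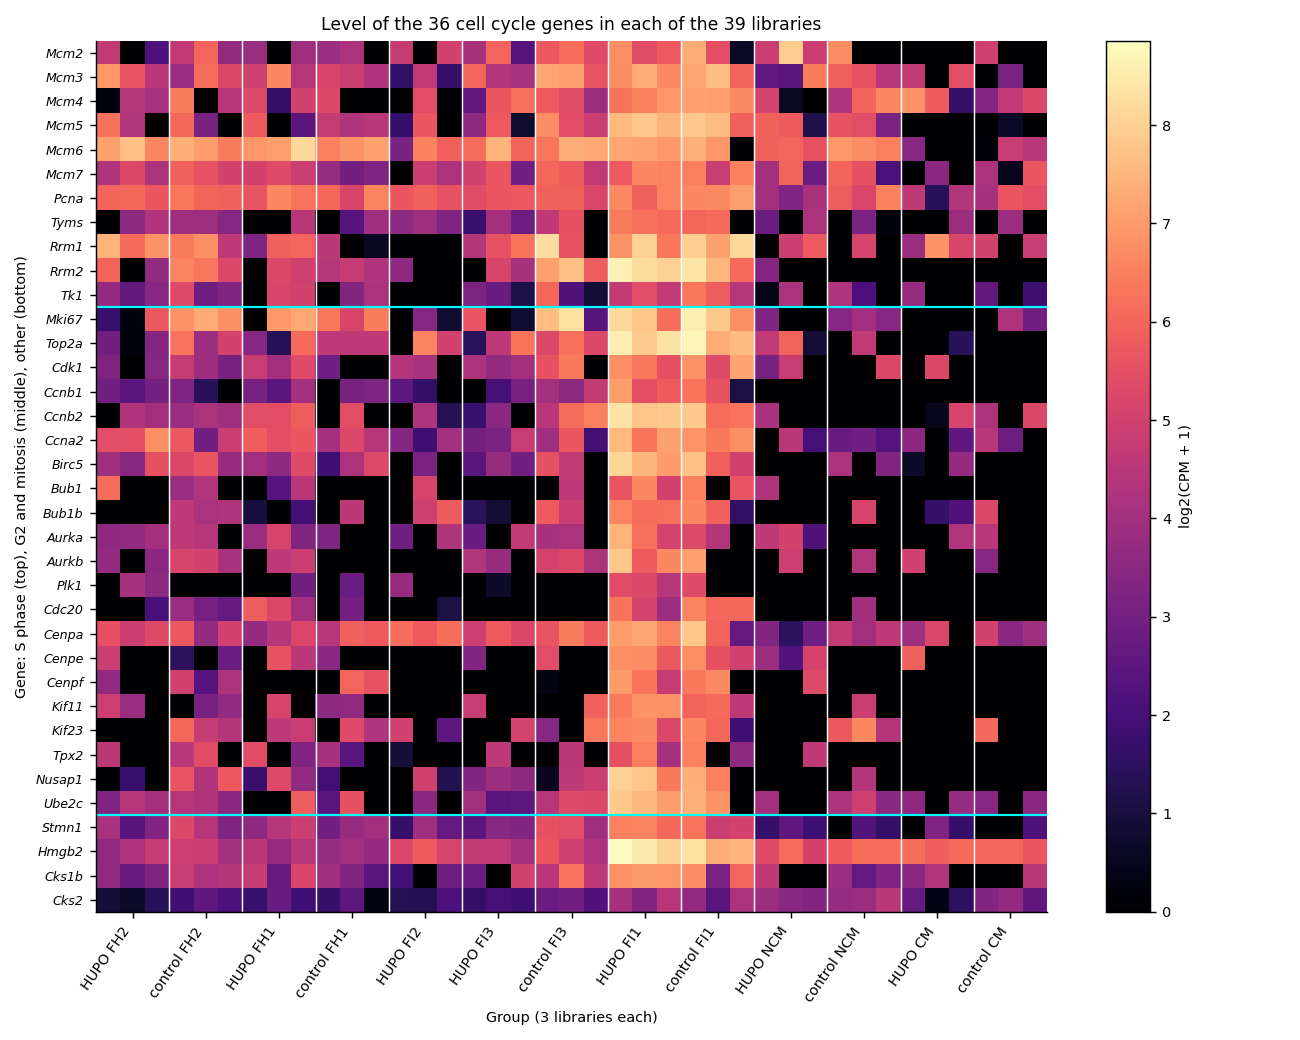
Level of each of the 36 members in each of the 39 libraries, as log2(CPM + 1), with genes ordered by phase and libraries by group, ankle before blood and HUPO before control. Lighter colour is higher and black is 0. The HUPO FI1 columns are light in nearly all rows, CM columns are black for many genes, and the lowest control FI1 library has counts for 28 of the 36.

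The difference between FI1 and the other ankle groups was tested with both FI1 groups against the mean of the 7 other ankle groups, a comparison added after the values had been seen. By edgeR's quasi-likelihood test (Benjamini-Hochberg adjusted p under 0.05, used for all calls), 18 of the 36 members were higher in FI1 and none lower, against 7.93% of all 12450 genes called higher, and the median log2 difference was 3.13 (2.85 with groups at 0 counts set to 3 counts over the group), against 0 over all genes. Hmgb2 had a log2 difference of 3.60 (SE 0.23, adjusted p = 4.33e-13) and Top2a one of 3.41 (SE 0.85, adjusted p = 0.00721). Rrm2 differed by 3.28 (SE 0.92, adjusted p = 0.0184), Birc5 by 3.26 (SE 0.92, adjusted p = 0.0174), Ccnb2 by 3.56 (SE 1.08, adjusted p = 0.0278) and Ccna2 by 2.23 (SE 0.73, adjusted p = 0.0421). By phase, 14 of 21 G2 and mitosis genes were called, but only 2 of 11 S phase genes, Rrm2 and Rrm1, and the difference between the phases was not tested. Ccnb1 differed by 3.39 (SE 1.01, adjusted p = 0.0279), Nusap1 by 4.09 (SE 1.11, adjusted p = 0.0144), Ube2c by 3.33 (SE 1.12, adjusted p = 0.0482) and Cks2 by 2.29 (SE 0.65, adjusted p = 0.0159). Rrm1, Bub1, Bub1b, Aurkb, Plk1, Cdc20, Cenpe and Cenpf were also called, but for each at least 1 ankle group was at 0, so only their levels are given above.

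Many of these calls rested on 1 library. Without control FI1 library Ank_1167_Control_Iia, 6 of the 18 remained called, and without the FI1 library highest in progenitor markers of each genotype (Ank_1231_HUPO_Iia and Ank_1167_Control_Iia) 5 members were called. Hmgb2, Top2a, Cdc20 and Cenpf held in all 32 alternatives, with Hmgb2 between 3.42 and 3.69 and Top2a between 3.13 and 3.72 on the log2 scale. Ccna2 lost its call in 23 and Ube2c in 25 of the 32 alternatives, and Birc5, Rrm2 and Ccnb2 in 2 or 3, among them the one without library Ank_1167_Control_Iia. In the same comparison 12 of 14 tested neutrophil markers and 9 of 11 tested progenitor markers were higher in FI1, as were 6 of 10 fibroblast markers.

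Against classical monocytes, FI1 was tested in each genotype. In HUPO mice 3 of 36 members were higher in FI1, against 0.851% of all genes: Hmgb2 with a log2 difference of 2.46 (SE 0.48, adjusted p = 0.00499), Rrm2 (adjusted p = 0.0393) and Mcm5 (adjusted p = 0.045). Rrm2 and Mcm5 had no counts in HUPO CM. Set against 3 counts over the group, they were at least 2120-fold and at least 1290-fold higher in HUPO FI1. These bounds and those below cover counting error only, not the spread between libraries. In control mice 4 of 36 members were higher, against 1.23% of all genes: Hmgb2 by 1.85 (SE 0.47, adjusted p = 0.0315), Top2a (at least 2790-fold, adjusted p = 0.0113), Rrm2 (at least 2080-fold, adjusted p = 0.0281) and Birc5 (at least 1200-fold, adjusted p = 0.024). All 36 members had a higher fitted mean in FI1 than in CM in both genotypes, with median log2 differences of 4.66 in HUPO and 4.10 in control mice, against medians near 0 over all genes. In each genotype 13 members had no counts in CM, with bounds of 213-fold to 2120-fold in HUPO and 184-fold to 2790-fold in control mice.

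These counts depended on single libraries. The HUPO count ranged from 1 to 2 when a library was left out, and the control count from 0 (without control CM library Bld_1470_Control_C) to 5. Without the library highest in progenitor markers, 1 member was called in each genotype. The Hmgb2 difference in HUPO mice held in all 11 alternatives (2.25 to 2.65), and that in control mice lost its call in 7 of 11. Rrm2 and Mcm5 in HUPO mice each lost their call in 7 of 11 alternatives, and in control mice Top2a lost it in 3, Rrm2 in 4 and Birc5 in 5. With both genotypes pooled, a comparison added after the values had been seen, 19 of 36 members were higher in FI1 than in CM, against 3.82% of all genes. Of these, Ccna2, Cenpa, Hmgb2, Mcm3, Mcm6, Pcna and Stmn1 had counts in both CM groups, with Pcna 2.07 higher (SE 0.47, adjusted p = 0.00687) and Mcm6 4.01 higher (SE 1.01, adjusted p = 0.0145). The calls for Birc5, Ccnb1, Cdc20, Hmgb2, Mcm5, Mki67, Nusap1, Rrm2 and Top2a held in all 17 alternatives, while the count fell to 12 without control CM library Bld_1506_Control_C, without HUPO CM library Bld_1739_HUPO_C or without the progenitor-highest libraries.

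Ankle populations together were compared with blood monocytes within each genotype. In HUPO mice 9 members were higher in the ankle, against 6.67% of all genes. Pcna was 2.12 higher on the log2 scale (SE 0.43, adjusted p = 0.000743), with a median of 58.5 CPM (40.2 to 103) in 15 ankle libraries and 16.3 CPM (1.62 to 23.8) in 6 blood libraries, which did not overlap. Mcm6 was 3.09 higher (SE 0.90, adjusted p = 0.0203) and Cenpa 2.30 higher (SE 0.72, adjusted p = 0.0307), and both had counts in every group. Rrm2, Mcm5, Mki67, Ccnb1, Birc5 and Nusap1 were called with at least 1 blood group at 0. In control mice 9 members were higher, against 6.88% of all genes: Stmn1 by 4.02 (SE 1.2, adjusted p = 0.0219), with a median of 24.5 CPM (6.96 to 76.8) in 12 ankle libraries and 1.06 CPM (0 to 3.96) in 6 blood libraries, and Rrm2, Top2a, Ccnb1, Ccnb2, Birc5, Cenpe, Cenpf and Tpx2, each with a blood group at 0. Pcna was not called in control mice, where ankle libraries (35.1 to 134 CPM) overlapped blood libraries (16.75 to 92.7 CPM). In HUPO mice Pcna held in all 26 alternatives, and so did Ccnb1 in its 26, whereas Mcm5 lost its call in 12, Rrm2 in 2, and Mki67, Birc5 and Nusap1 in 1 each. In control mice Rrm2, Top2a, Ccnb1 and Birc5 held in all 23 alternatives, while Ccnb2 lost its call in 15, Cenpe and Tpx2 in 8 each and Cenpf in 7. Mcm6 lost its call without HUPO CM library Bld_1739_HUPO_C (adjusted p = 0.0519) or HUPO NCM library Bld_1739_HUPO_NC (adjusted p = 0.0552). Cenpa lost its call without HUPO CM library Bld_1505_HUPO_C, HUPO NCM library Bld_1606_HUPO_NC or HUPO NCM library Bld_1739_HUPO_NC, and when only the groups compared were fitted (adjusted p up to 0.0875). Stmn1 lost its call without control CM library Bld_1470_Control_C, control CM library Bld_1506_Control_C or control NCM library Bld_1508_Control_NC, and when only the groups compared were fitted (adjusted p up to 0.0758).

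In the remaining contrasts between populations that had a call, the member called was Hmgb2. With only the groups compared fitted, 8 members were called for HUPO FI3 and 6 for HUPO FI2 against HUPO FI1. The share of all genes in those fits is not given here. DESeq2 called 5 members for HUPO FI3, against 9.44% of all genes, and 14 for HUPO FI2, against 10.5%. Hmgb2 was lower in HUPO FI3 than in HUPO FI1, with 25.2, 25.1 and 15.3 CPM against 463, 359 and 262 CPM (log2 difference -4.05, SE 0.52, adjusted p = 7.9e-06), 1 of 36 members against 0.458% of all genes called lower. HUPO FI2, with 37.1, 53.8 and 34.3 CPM, was also lower than the same HUPO FI1 libraries (-3.11, SE 0.50, adjusted p = 0.000363), against 0.257% of all genes. Control FI3, with 49.6, 30.4 and 18.1 CPM, was lower than control FI1 with 308, 162 and 174 CPM (-2.72, SE 0.49, adjusted p = 0.000905), against 1% of all genes. The mean of the FH groups was lower than the mean of FI1 and FI3 in HUPO mice (log2 difference -2.24, SE 0.34, adjusted p = 9.88e-05), against 0.731% of genes, and in control mice (-2.22, SE 0.34, adjusted p = 4.79e-05), against 1.77%. Hmgb2 in FI3 alone overlapped the FH libraries in both genotypes, so FH was not shown to be lower than FI3. Over all members the median log2 difference was -3.26 for HUPO FI3 and -3.58 for HUPO FI2 against HUPO FI1, and -1.14 for control FI3 against control FI1, where control FI3 itself held 892 to 1938 CPM of the 36 genes. The call in control FI3 was lost when only the groups compared were fitted (adjusted p = 0.0916). That in HUPO FI2 was lost when the replicate number was fitted as a block (adjusted p = 0.0844). This fit had 2 residual degrees of freedom, against 26 in the main fit.

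No member passed the test between HUPO FI2 and HUPO FI3 (0.00803% of all genes called), between FH2 and FH1 in HUPO (0.0643%) or control mice (0.394%), or between NCM and CM in HUPO (1.21%) or control mice (0.884%). At an unadjusted p under 0.05, 4 members were lower in HUPO FI2 than in FI3, against 6.35% of all genes in either direction, 1 was higher and 1 lower in HUPO FH2 than in FH1 (4.16%) and 2 were higher in control FH2 than in FH1 (5.36%). Of the 36, 8 were higher and 1 lower in HUPO NCM than in CM (12.4%), and 8 higher and 2 lower in control NCM than in CM (11.3%). DESeq2 called 7 members between HUPO FI2 and FI3, against 7.09% of all genes, 3 between HUPO FH2 and FH1 (4.32%), 3 between control FH2 and FH1 (4.46%), 12 between HUPO NCM and CM (12.3%) and 10 between control NCM and CM (10.3%).

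Between HUPO and control mice no member passed the test in any population. The background was 0.225% of all genes in FI1, 1.07% in FI3, 0.651% in FH2, 0.843% in FH1, 0.731% in NCM and 0.562% in CM. At an unadjusted p under 0.05 no member passed in FI1, against 8.45% of all genes in either direction, or in FI3 (10.5%). At the same p, 1 was higher and 3 lower in FH2 (7.7%), 1 higher and 1 lower in FH1 (7.16%), 6 higher and 7 lower in NCM (9.48%), and 3 higher and 3 lower in CM (11.1%). DESeq2 called 0 members in FI1, against 7.92% of all genes, 3 in FI3 (9.87%), 3 in FH2 (6.55%), 3 in FH1 (6.61%), 14 in NCM (9.16%) and 7 in CM (10.8%). The median log2 difference, HUPO over control, was 0.50 in FI1, -1.42 in FI3, -0.72 in FH2 and 0.71 in FH1, with 28, 3, 11 and 30 of the 36 members having a positive value, and the medians over all genes were 0, 0, -0.11 and 0. These medians rest on genes that share libraries and are given as description.

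In FI3 the direction of the means was lower in HUPO mice. Mitosis genes summed to 246, 197.5 and 177 CPM in HUPO FI3 and to 911, 609 and 437 CPM in control FI3, in order of level, without overlap, and S phase genes averaged 385 ± 160.0 CPM against 788 ± 358 CPM (SD, n = 3 each). Mki67 had 48.0, 0 and 0.727 CPM in HUPO FI3 and 204, 322 and 4.14 CPM in control FI3, where library Ank_1470x4_Control_Iic was low. Rrm2, Ccnb1, Ccnb2, Ube2c, Stmn1 and Cks2 were lower in every HUPO than in every control FI3 library, 6 of 36 members against 7.09% of all genes, and none was higher in every HUPO library, against 10.2%. Rrm2, for example, had 0, 35.2 and 16.4 CPM in HUPO FI3 and 139, 205 and 56.4 CPM in control FI3. HUPO FI3 also carried more neutrophil markers, 650 to 1897 CPM against 54.2 to 129 CPM in control FI3, with 1 of 14 tested markers (S100a9) called, and the part of this in the result was not tested.

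In FH2 and FH1 the means lay on opposite sides of control, a difference between populations that was not tested. In FH2, mitosis genes summed to 170.5, 321 and 341 CPM in HUPO mice and 396, 479.7 and 672 CPM in controls, without overlap. Mki67 had 2.32, 0.156 and 51.4 CPM in HUPO FH2 and 112, 155 and 110.5 CPM in control FH2, and Nusap1 had 0, 2.34 and 0 CPM against 48.1, 18.8 and 52.3 CPM. Mki67, Top2a, Bub1b, Aurkb, Cdc20, Kif23, Nusap1, Cks1b and Cks2 were lower in every HUPO than in every control FH2 library, 9 of 36 members against 11.3% of all genes, and none was higher, against 7.12%. In FH1, S phase genes summed to 347, 503 and 603 CPM in HUPO mice and 264, 321 and 331 CPM in controls, without overlap, while mitosis genes overlapped, at 284 to 668 CPM and 201 to 423 CPM. Mcm7, Cdk1, Ccna2, Aurka and Cdc20 were higher in every HUPO than in every control FH1 library, 5 of 36 against 7.28% of all genes, and none was lower, against 8.34%. Mcm7 had 32.7, 39.4 and 28.0 CPM in HUPO FH1 and 12.4, 6.84 and 8.64 CPM in control FH1. Neutrophil markers were 1885, 2348 and 10810 CPM in HUPO FH1 and 6.00 to 924 CPM in control FH1, and 334 to 4859 CPM in HUPO FH2 and 51.9 to 1092 CPM in control FH2, and their part was not tested.

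In FI1, Tyms, Kif11 and Cks1b were higher in every HUPO than in every control library, 3 of 36 members against 7.56% of all genes, and none was lower, against 3.96%. Kif11, the motor of spindle pole separation, had 85.2, 116 and 113 CPM in HUPO FI1 and 61.0, 68.2 and 23.1 CPM in control FI1. The sums of both phases overlapped between the genotypes in FI1. Fibroblast markers were 1801 to 6205 CPM in HUPO FI1 and 2394 to 12480 CPM in control FI1. The HUPO effect was also compared between populations, and no member passed the test between FH and FI (0.257% of all genes called) or between FI1 and FI3 (0.321%). At an unadjusted p under 0.05 the first gave 1 member, against 7.12% of all genes, and the second 0 (8.36%), and DESeq2 called 4 (8.75%) and 2 (8.57%).

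Other genes of the pathway were read from 8 lists. Of 43 tested further mitosis genes, 24 were higher in FI1 than in the other ankle groups and none lower, against 7.93% of all genes called higher and 3.99% called lower in that comparison, and of 32 further S phase genes 6 were higher and none lower. Smc4, a condensin subunit, had 408, 229.5 and 276 CPM in HUPO FI1 and 240.3, 252 and 155 CPM in control FI1, and was lower in HUPO FI2, with 45.1, 0 and 26.5 CPM, than in HUPO FI1 (log2 difference -3.67, SE 0.90, adjusted p = 0.0344). Slbp, which binds the RNA of replication-dependent histones, was 0.98 higher in FI1 than in the other ankle groups (SE 0.27, adjusted p = 0.0149) and 1.72 higher than in CM (SE 0.37, adjusted p = 0.00402). Of 16 replication checkpoint and repair genes 5 were higher in FI1 than in the other ankle groups, among them Fanca, which acts in crosslink repair (log2 difference 2.80, SE 0.79, adjusted p = 0.0159). In HUPO mice Fanca was lower in ankle than in blood (-2.69, SE 0.87, adjusted p = 0.036). It had 43.2, 68.7 and 45.4 CPM in HUPO FI1 and 53.7, 77.2 and 159.5 CPM in HUPO CM. Of 22 tested E2F, RB and MuvB regulators 6 were higher, among them Mxd1, an antagonist of Myc (1.91, SE 0.38, adjusted p = 0.00068). None of either list was lower in FI1 than in the other ankle groups. Of the remaining lists, 1 of 11 G1 cyclins and kinases and 1 of 6 tested kinase inhibitors were higher in FI1 than in the other ankle groups, as were 2 of 14 antiproliferative genes, with 3 lower, and 3 of 10 tested mitogen receptors and ligands, with 2 lower. With lists this short, 1 or 2 called genes lie near the share of all genes.

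The G1 cyclin Ccnd3 was the member of its list of 11 that was called higher in FI1 than in the other ankle groups (log2 difference 2.27, SE 0.19, adjusted p = 3.56e-10), but its levels in blood overlapped those of FI1. It had 527.5, 423.5 and 303 CPM in HUPO FI1 and 497, 312 and 335 CPM in control FI1, against 537, 217.5 and 435 CPM in HUPO CM and 650.2, 587 and 696 CPM in control CM. In the other ankle groups its means were 58.4 to 124 CPM. It was lower in HUPO FI3 (-2.84, SE 0.41, adjusted p = 5.32e-05) and HUPO FI2 (-2.82, SE 0.41, adjusted p = 0.000124) than in HUPO FI1, and lower in control FI3 than in control FI1 (-1.62, SE 0.39, adjusted p = 0.0207). Ankle groups were lower than blood by 2.15 in HUPO mice (-2.15, SE 0.21, adjusted p = 6.53e-09) and in control mice by a smaller value (-1.72, SE 0.23, adjusted p = 9.84e-07). Ccnd3 thus ran opposite to most of the 36 genes between ankle and blood.

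**Figure D5:**
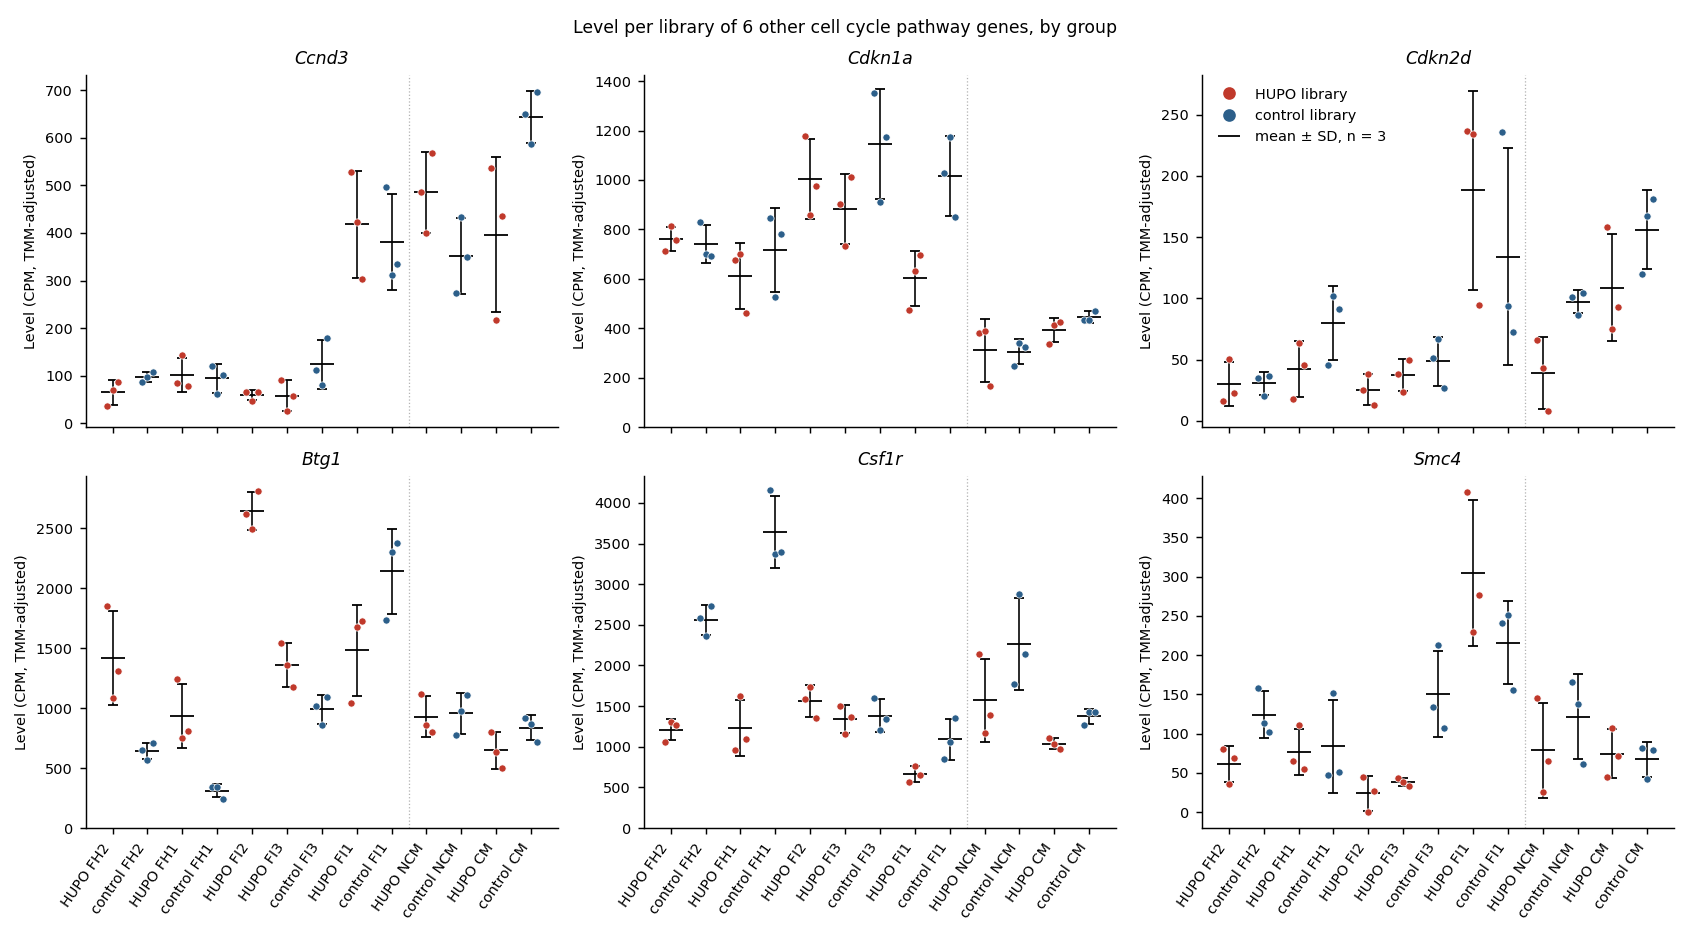
Level in CPM of Ccnd3, Cdkn1a, Cdkn2d, Btg1, Csf1r and Smc4 in each library, with the mean and SD of 3 libraries per group, HUPO in red and control in blue, ankle groups left of the dotted line. Ccnd3 is high in FI1, NCM and CM and at group means of 58.4 to 124 CPM in the other ankle groups, and Csf1r averages 1212 CPM in HUPO FH2 and 2562 CPM in control FH2.

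Inhibitors of division were measured in the same libraries. Cdkn1a (p21), which blocks cyclin-dependent kinases, was 1.12 higher in ankle than in blood in HUPO mice (SE 0.15, adjusted p = 2.59e-06) and 1.27 higher in control mice (SE 0.16, adjusted p = 3.91e-07). It had 476, 633 and 695 CPM in HUPO FI1 and 1029, 1173 and 850.0 CPM in control FI1, and exceeded CM in control mice (1.19, SE 0.25, adjusted p = 0.00501). Cdkn2d (p19), an inhibitor of Cdk4 and Cdk6, was higher in FI1 than in the other ankle groups (2.02, SE 0.33, adjusted p = 4.8e-05), with 236, 234 and 94.6 CPM in HUPO FI1 and 236, 93.8 and 72.5 CPM in control FI1.

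Btg1, an antiproliferative gene, and Csf1r, the receptor for the macrophage growth factor, did differ between HUPO and control mice in FH populations. Btg1 had 1848, 1082 and 1313 CPM in HUPO FH2 and 649, 570 and 709.5 CPM in control FH2 (log2 difference 1.14, SE 0.23, adjusted p = 0.00636), and 1240, 754 and 810.2 CPM in HUPO FH1 and 344.5, 338 and 246 CPM in control FH1 (1.59, SE 0.23, adjusted p = 4.53e-05). Csf1r averaged 1212 ± 130 CPM in HUPO FH2 and 2562 ± 189 CPM in control FH2 (-1.08, SE 0.21, adjusted p = 0.00473), and 1227 ± 346 CPM in HUPO FH1 and 3643 ± 446 CPM in control FH1 (-1.57, SE 0.21, adjusted p = 1.97e-05, SD and n = 3 each). Csf2rb, of the same list of mitogen receptors and ligands as Csf1r, went the other way. It was higher in HUPO than in control FH2 (2.03, SE 0.49, adjusted p = 0.0381) and FH1 (2.98, SE 0.51, adjusted p = 0.000553). The HUPO effect differed between FH and FI populations for Btg1 (1.40, SE 0.22, adjusted p = 0.000813) and for Csf1r (-0.94, SE 0.21, adjusted p = 0.031). Neutrophil markers overlapped in FH2, at 334 to 4859 CPM in HUPO and 51.9 to 1092 CPM in control mice. In FH1 they did not, at 1885 to 10810 CPM in HUPO and 6.00 to 924 CPM in control mice. Their part in the levels of Btg1, Csf1r and Csf2rb was not tested. In the same FH groups none of the 36 cell cycle genes passed the test.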

How the data were processed

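Per the labels' protocols, RNA of sorted cells was amplified with SMART-Seq v4, made into libraries with Nextera XT and read on a NextSeq 500 as single 75 base reads. The deposited files hold whole-number read counts per gene symbol, not normalized, per the file headers and values. The submitters' processing notes name FastQC, STAR, HTSeq, Cufflinks and mm10. Whether counting used strand is not given in the sources used here. Here counts were scaled to CPM with TMM factors (0.83 to 1.16). Genes were filtered with filterByExpr, which left 12450, and tested with edgeR 4.0.16 (limma 3.58.1, R 4.3.3) by a robust quasi-likelihood fit of all 13 groups, with Benjamini-Hochberg adjustment at 0.05 over all genes tested. Alternatives were DESeq2 1.42.0, DESeq2-type size factors, no filter, only the groups compared, a replicate block and leaving out each library. The test was run on simulated counts whose spread was set below that of these data, so this check does not cover the spread here. Depth limits low genes: 3 counts over a group equal 0.105 to 0.179 CPM. Such floors cover counting error only. With 3 libraries against 3, an exact permutation test cannot go below p = 0.1, so single sums were compared by overlap. Members called in any comparison, and Mki67, Top2a, Pcna and Mcm6, are given per library in FI1, and by library or range elsewhere. Other pathway genes were named by smallest p in any comparison, up to 4 per list. The members and lists were chosen with earlier results of these data known. Of the listed symbols 8 had no match. The result of 1 gene of the pathway lists is not reported here.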

Additional observations from a re-analysis of the deposited data

Results flagged for a closer look

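3 results went in opposite directions between HUPO and control mice in 2 populations, with every HUPO library on one side of every control library in each. They came from a search of all members and their sums over all pairs of populations. The share of all genes with such a pattern is not given here, so their number is not a result about the members. In none of them was the difference between the populations tested. Values below give the difference between the populations of the HUPO minus control difference in log2(mean CPM + 1).

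Cdc20, the activator of the anaphase-promoting complex, had 55.9, 36.8 and 15.7 CPM in HUPO FH1 and 0, 7.21 and 0 CPM in control FH1, but 0, 0 and 3.07 CPM in HUPO FH2 and 13.4, 7.36 and 5.36 CPM in control FH2, a difference of 5.71. Cks1b had 112, 128 and 123 CPM in HUPO FI1 and 106, 7.77 and 62.5 CPM in control FI1, but 11.1, 5.62 and 9.20 CPM in HUPO FH2 and 27.0, 17.8 and 19.8 CPM in control FH2, a difference of 2.25. The 4 other proliferation-linked genes summed to 61.4, 44.8 and 87.2 CPM in HUPO FH1 and 35.8, 41.2 and 32.1 CPM in control FH1, but to 40.9, 29.2 and 46.0 CPM in HUPO FH2 and 96.8, 72.3 and 47.4 CPM in control FH2, a difference of 1.69.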

How the results depend on the processing

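With DESeq2-type size factors and without the low-count filter, the member counts of all 24 comparisons stayed within 1.5 times. DESeq2's own test called 4.32% to 27.6% of all genes and, in the comparisons below, more members, given with the share of all genes. HUPO against control gave 7 in CM (10.8%), 14 in NCM (9.16%), 3 in FI3 (9.87%), 3 in FH1 (6.61%) and 3 in FH2 (6.55%). Ankle against blood gave 22 in HUPO (26.3%) and 23 in control (27.6%). NCM against CM gave 12 in HUPO (12.3%) and 10 in control (10.3%), and FI1 against CM 23 (12.6%) and 19 (14.9%). FI3 against FI1 gave 5 in HUPO (9.44%) and 3 in control (14.1%). FI2 against FI1 gave 14 (10.5%) and FI2 against FI3 7 (7.09%). FH against FI gave 6 in HUPO (10.6%) and 4 in control (14.9%), and FH2 against FH1 3 (4.32%) and 3 (4.46%). The HUPO effect gave 4 between FH and FI (8.75%) and 2 between FI1 and FI3 (8.57%). With only the groups compared fitted, counts were 5 for HUPO ankle against blood, 7 and 2 for FI1 against CM (HUPO, control), 8 and 0 for FI3 against FI1, 6 for FI2 against FI1, and 2 and 3 for FH against FI. The share of all genes in these last fits is not given here.

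Leaving out 1 library gave 6 to 9 calls for HUPO and 5 to 10 for control ankle against blood, 1 to 2 and 0 to 5 for FI1 against CM, 0 to 1 for NCM against CM in each genotype and for HUPO against control CM, 6 to 20 for FI1 against other ankle groups and 12 to 19 for FI1 against CM over both genotypes. Without the progenitor-highest FI1 libraries, an alternative chosen after seeing the data, these were 1, 1, 5 and 12. Aurkb in FI1 against other ankle groups reversed, to -0.63 without control FI1 library Ank_1167_Control_Iia (-0.63 to 5.33 when each library was left out) and -0.45 without the progenitor-highest libraries. The cause was not tested.

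For same-numbered libraries, the deviations of each gene from its group mean (log2 scale) correlated between -0.02 and 0.05. With 3 noisy libraries per group, such values cannot show whether the numbers pair the samples. A replicate block gave 0 calls for FI2 against FI1 and 2 for control FH against FI, and 0 for NCM against CM in each genotype, 1 for HUPO FI3 against FI1, 0 for FI2 against FI3, 1 for HUPO FH against FI and 0 for HUPO FH2 against FH1. The share of all genes in the block fits is not given here. They had 2 residual degrees of freedom, or 1 for HUPO FH2 against FH1, 4 for control and 5 for HUPO FH against FI. The main fit had 26, so the block fits had little power to call a gene. Under the block Hmgb2 in FI2 against FI1 differed by -3.10 (adjusted p = 0.0844). Low counts limit most members outside FI1, where many libraries were at 0.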
